A study of Mus musculus with 6 samples.

Results

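Genes of serine and glycine synthesis and cleavage, 10 in number, were followed in mRNA-sequencing data of mouse Ba/F3 cells. The members were chosen by their role in the pathway and not by a threshold on measured values, but with earlier results of these data known. All 10 were found among the 41255 genes listed. They comprise the 3 enzymes of de novo serine synthesis (Phgdh, Psat1 and Psph), both serine hydroxymethyltransferases (Shmt1 and Shmt2), the mitochondrial serine carrier Sfxn1, serine racemase (Srr), and 3 components of the glycine cleavage system (Gcsh, Gldc and Amt). The RPL10 R98S mutation is found in T-cell acute lymphoblastic leukemia, and the comparison asks how mRNA levels of these enzymes differ between cells that carry the mutant and the WT ribosomal protein.

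Ba/F3 is a mouse lymphoid line that grows on interleukin-3. The WT group comprised clones 28, 29 and 36, which express human RPL10 WT, and the R98S group comprised clones 11, 13 and 35, which express human RPL10 R98S. Each clone had been expanded from 1 cell after retroviral transduction, both groups carry a short hairpin RNA against endogenous mouse Rpl10, and all cells received a short cycloheximide pulse before lysis. There was 1 library per clone, so n = 3 in each group is a number of clones, and every difference described here is between these clones.

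Serine is made from the glycolytic intermediate 3-phosphoglycerate. Phgdh oxidizes 3-phosphoglycerate, Psat1 transaminates the product to phosphoserine, and Psph removes the phosphate to release serine. Serine hydroxymethyltransferases then convert serine to glycine and pass a carbon unit to tetrahydrofolate, in the cytosol and nucleus (Shmt1) or in mitochondria (Shmt2), while the glycine cleavage system breaks glycine down in mitochondria and also yields a carbon unit for folate. Dividing lymphoid cells draw on these carbon units for the synthesis of purines and thymidylate.

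Libraries held between 21786776 and 24204991 reads assigned to genes. Values are normalized read counts, that is, reads divided by a size factor of the library, and 1 read was worth 0.925 to 1.07 normalized counts. A gene was called changed at a limma adjusted p under 0.1, and the 11550 genes whose normalized counts averaged 10 or more were tested, all 10 members among them. The counts of mouse Rpl10, the gene targeted by the short hairpin RNA in both groups, were 2637 ± 655 (SD, n = 3) in WT and 2509 ± 580 in R98S clones (limma adjusted p = 0.871), which does not check the group labels because the knock-down is shared. Of 11 genes listed as lymphoid precursor markers, 3 (Ptprc, Cd79a and Cd79b) passed the expression filter. Pax5, Rag1, Vpreb1 and Igll1 were at or under 3 reads in every library. The summed level of the 11 genes was 10163 to 15420 in WT and 5267 to 7300 in R98S clones. Most of this sum came from Ptprc in every clone. Ptprc encodes CD45, which leukocytes carry in general, so the sum does not measure lymphoid precursor genes. Among the tested markers Ptprc was lower in R98S clones (means of 11217 in WT and 4471 in R98S, limma adjusted p = 0.00894), Cd79b was higher (258.1 and 572, limma adjusted p = 0.0617) and Cd79a was not called (1076 and 1248, limma adjusted p = 0.449). The chains Csf2rb and Csf2rb2 of the interleukin-3 receptor were higher in R98S clones, with mean counts of 74703 against 51875 (limma adjusted p = 0.0509) and 63212 against 41054 (limma adjusted p = 0.0178), while Il3ra had means of 698 and 794 (limma adjusted p = 0.432). Of 7 mast cell and myeloid markers 4 passed the filter. Gata2 (means of 27299 in WT and 15106 in R98S, limma adjusted p = 0.00666) and Lyz2 (limma adjusted p = 0.0366) were called lower. Lyz2 had only 4, 23 and 43 reads in WT and 1, 0 and 2 in R98S clones. Cpa3 (means of 71.5 in WT and 192.5 in R98S, limma adjusted p = 0.372) and Ms4a2 (105.5 and 73.0, limma adjusted p = 0.464) were not called. Of 6 markers of other lineages none passed the filter. The part of these marker differences in the results below was not tested, and in bulk RNA a change in every cell cannot be told apart from a change in the share of cells that express a gene.

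Of the 10 members, 2 were called higher in R98S clones, Psph and Shmt1, and 0 were called lower. Across all genes tested 10.7% were called higher, 13.1% lower and 23.9% in either direction, against which 2 of 10 members is close to the share called in either direction. The median log2 fold change of the members was 0.08, against -0.01 over all genes tested. The levels of WT and R98S clones did not overlap for 4 members (Psph, Phgdh, Shmt1 and Srr), and did not overlap for 37.3% of all genes tested.

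Psph, phosphoserine phosphatase, lies on chromosome 5 (129765558 to 129787449, minus strand, GRCm38). Its normalized counts in WT clones 28, 29 and 36 were 110.6, 94.6 and 95.1, whereas R98S clones 11, 13 and 35 had 570.4, 604.2 and 674.4. The lowest R98S clone stood far above the highest WT clone, and the clones of each group lay close together, with a coefficient of variation of 9.1% in WT and 8.61% in R98S clones. The means were 100.1 ± 9.11 (SD, n = 3) and 616.4 ± 53.1, a ratio of 6.16, and the log2 fold change of 2.61 (SE 0.16, 95% confidence interval 2.25 to 2.98) had a limma adjusted p of 8.894e-05. The interval corresponds to a 4.74- to 7.87-fold difference. Psph held rank 105 of 11550 when genes were ordered from the highest log2 fold change. These values rest on 88 to 108 reads per WT library and 592 to 729 reads per R98S library. Leaving out any 1 clone moved the log2 fold change between 2.54 and 2.68, and Psph was called under all 17 alternative settings that were tried.

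The start of Psph overlaps a neighbour on the other strand. The sequence upstream of its start site is shown because in the GENCODE annotation 452 exon bases of Psph, 10.4% of its exons, are also exon bases of the divergent gene Cct6a, a subunit of the cytosolic chaperonin. The window below comes from RefSeq (GRCm38.p6, chr5:129787204-129787503, minus strand, read 5′ to 3′ in the direction of Psph), spans 250 bases before to 50 bases after the Psph start site, and has in capitals the 65 bases that lie in the first exon of a Cct6a transcript.
Psph promoter: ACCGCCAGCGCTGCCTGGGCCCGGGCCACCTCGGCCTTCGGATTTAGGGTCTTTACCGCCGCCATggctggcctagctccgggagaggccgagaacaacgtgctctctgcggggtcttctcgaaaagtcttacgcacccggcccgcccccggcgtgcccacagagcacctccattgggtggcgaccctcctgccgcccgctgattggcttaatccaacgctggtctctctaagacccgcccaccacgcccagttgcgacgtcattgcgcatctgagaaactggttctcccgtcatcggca
RefSeq places the Psph start at 129787253, inside the outermost GENCODE start given above, and 186 bases separate it from the start of that Cct6a transcript. The capitals mark the first exon of that transcript only and do not mark the shared exon bases. The 452 shared exon bases come from longer GENCODE transcripts of the genes and include the lower-case bases of the window. Cct6a had normalized counts of 8332, 8115 and 7178 in WT clones against 10535, 8214 and 9524 in R98S clones, and the groups overlapped. Its log2 fold change of 0.25 (95% confidence interval -0.03 to 0.54, limma adjusted p = 0.197) corresponds to between 0.98- and 1.45-fold. The libraries were prepared with a strand-specific kit, but the strand setting of the counting is not given in the sources used here. How reads in the shared bases were assigned is therefore not known, and their part in the Psph counts was not tested.

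Windows of the same kind were available for all 10 members (11 windows, 300 bases each). Both strands were searched for the core TGATGNAA of the composite element bound by ATF4, a regulator of amino acid synthesis genes, and for the E-box CACGTG, bound by Myc and related factors. Neither string was present in any of the 11 windows, whereas TGATGNAA was found in 3.97% and CACGTG in 7.15% of the 32851 mouse promoter windows. Absence from these windows says only that the letters are not within them.

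**Figure D1:**
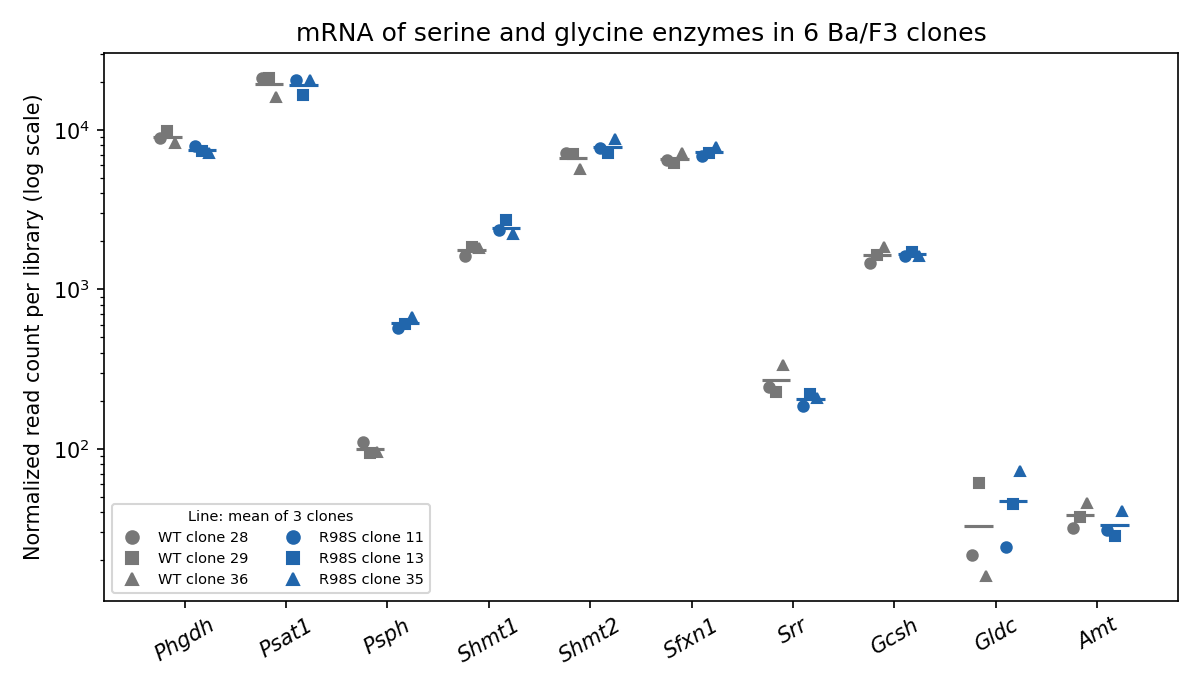
Normalized read counts (log axis) of the 10 members in each clone, with WT clones 28, 29 and 36 and R98S clones 11, 13 and 35 as separate symbols and group means as lines. Psph counts of 570.4 to 674.4 in R98S clones lie above the 94.6 to 110.6 of WT clones, while Psat1, Shmt2, Sfxn1, Gcsh, Gldc and Amt overlap between the groups.

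Neither of the upstream enzymes of the pathway was called. Phgdh, which commits 3-phosphoglycerate to serine synthesis (chromosome 3, 98313170 to 98339990, minus strand), had counts of 8927, 9788 and 8250 in WT and 7942, 7365 and 7211 in R98S clones. Every R98S clone was below every WT clone. The log2 fold change was -0.26 (SE 0.10, 95% confidence interval -0.50 to -0.02), and the limma adjusted p of 0.136 did not pass the threshold. The interval allows 0.707- to 0.989-fold, and leaving out clones gave -0.32 to -0.20. The 10 nearest genes of Phgdh had a median log2 fold change of -0.22, with 3 called lower, beside 13.1% called lower over all genes tested. Corrected for its 30 closest neighbours, Phgdh itself was at -0.06 (limma adjusted p = 0.708).

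Psat1, phosphoserine aminotransferase (chromosome 19, 15904678 to 15947337, minus strand), was the most abundant member. It was counted at 21052, 21223 and 16220 in WT and at 20541, 16527 and 20489 in R98S clones. WT clone 36 and R98S clone 13 were low and the other 4 clones were high, so the groups overlapped fully. The log2 fold change of -0.02 (95% confidence interval -0.36 to 0.32, limma adjusted p = 0.944) leaves room for a difference between 0.779- and 1.25-fold.

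**Figure D2:**
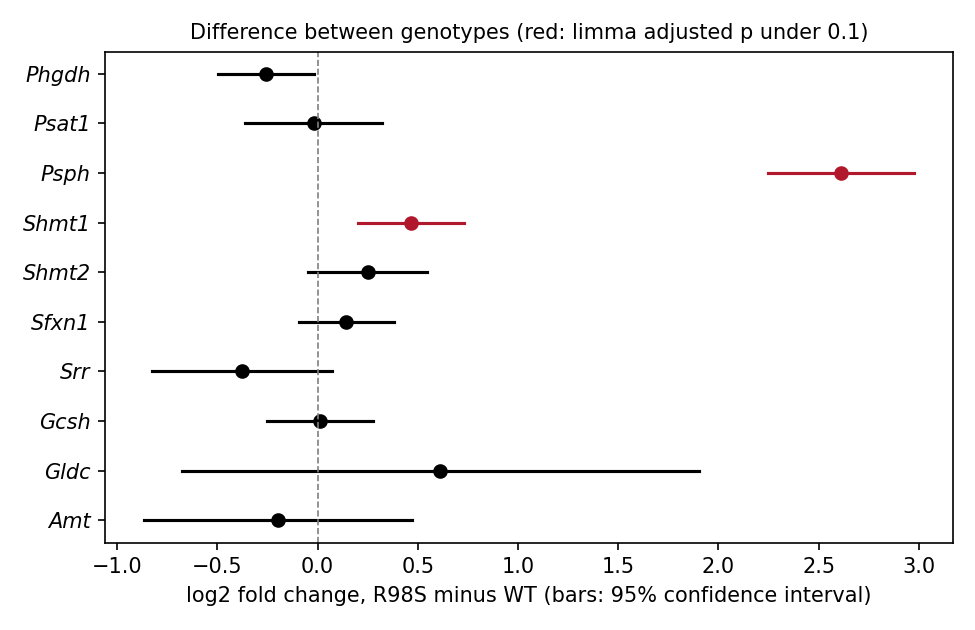
Log2 fold change (R98S minus WT) of each member with its 95% confidence interval from limma, on the log2(normalized count + 1) scale. Psph stands at 2.61 and Shmt1 at 0.47, while the interval of Gldc runs from -0.68 to 1.91.

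Psph mRNA was scarce relative to the upstream steps in WT clones. Per kilobase of exon, Psph had a level of 23.1 ± 2.11 (SD, n = 3) normalized counts in WT clones against 142.4 ± 12.3 in R98S clones. Per kilobase the level of Phgdh was 3616 ± 310 in WT and 3019 ± 155 in R98S clones, and that of Psat1 4584 ± 668 and 4510 ± 541. In WT clones 28, 29 and 36 the Psph level amounted to 0.711%, 0.555% and 0.662% of the Phgdh level, and in R98S clones 11, 13 and 35 to 4.13%, 4.71% and 5.37%. Against Psat1 the Psph level was 0.516%, 0.438% and 0.576% in WT clones against 2.73%, 3.59% and 3.24% in R98S clones. The groups did not overlap in either ratio. The Psph to Phgdh ratio was 7.37-fold higher and the Psph to Psat1 ratio 6.25-fold higher in R98S clones (exact two-sided permutation test, p = 0.1 for each, the smallest that 3 against 3 clones allow, and 0.267 after adjustment over the 8 ratios computed). In terms of the other enzymes, there were 156 Phgdh and 196 Psat1 normalized counts per kilobase for each Psph count per kilobase in WT clones, and 21.1 and 31.4 in R98S clones.

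Of the summed level per kilobase of the 3 synthesis enzymes, Psph made up 0.298%, 0.244% and 0.307% in WT clones against 1.62%, 2% and 1.98% in R98S clones. The difference of 1.58 percentage points (exact permutation p = 0.1) ranged from 1.51 to 1.71 when clones were left out. The share of Phgdh was 44.1% in WT and 39.5% in R98S clones (exact permutation p = 0.2), and that of Psat1 55.6% and 58.7% (exact permutation p = 0.3). The Phgdh to Psat1 ratio in R98S clones was 0.848 times that in WT clones (exact permutation p = 0.2), and the groups overlapped. Psph had the lowest level per kilobase of the 3 synthesis mRNAs in every clone.

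**Figure D3:**
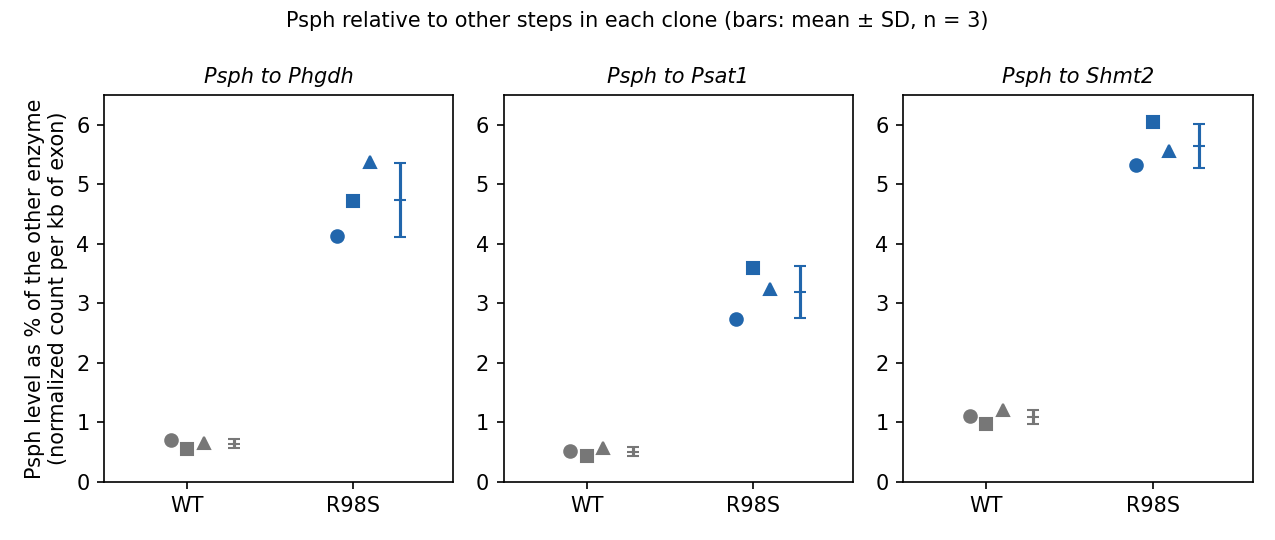
Level per kilobase of Psph as a percentage of that of Phgdh, Psat1 and Shmt2 in each clone (symbols; bars are mean ± SD, n = 3). WT clones lie at 0.438% to 1.20% and R98S clones at 2.73% to 6.04% over the 3 ratios, with no overlap in any of them.

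The pair of serine hydroxymethyltransferases differed in their calls. Shmt1, the cytosolic enzyme (chromosome 11, 60788104 to 60811718, minus strand), had counts of 1629, 1841 and 1810 in WT and 2362, 2720 and 2224 in R98S clones. All R98S clones were above all WT clones. The means were 1760 ± 114 (SD, n = 3) and 2435 ± 256, and the log2 fold change of 0.47 (SE 0.12, 95% confidence interval 0.20 to 0.73) had a limma adjusted p of 0.0333. This corresponds to 1.15- to 1.66-fold. The call was lost without WT clone 28, the lowest of the WT clones (log2 fold change 0.41, limma adjusted p = 0.140), and was kept in the other 16 of 17 alternatives. Shmt1 shares 184 exon bases, 4.74% of its exons, with Smcr8 on the opposite strand, which was not called (limma adjusted p = 0.358).

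Shmt2, the mitochondrial enzyme (chromosome 10, 127517123 to 127522444, minus strand), was counted at 7184, 7029 and 5687 in WT and 7704, 7182 and 8722 in R98S clones. R98S clone 13 was level with WT clone 28, and the groups overlapped by that pair alone. The log2 fold change was 0.25 (95% confidence interval -0.05 to 0.54, limma adjusted p = 0.224), or 0.969- to 1.46-fold, so a change of the size of that in Shmt1 lies within the interval, and it was 0.14 without WT clone 36. The ratio of Shmt1 to Shmt2 was 1.16-fold higher in R98S clones (exact permutation p = 0.5), and a difference between the responses of the 2 enzymes was not shown. Per kilobase Shmt2 exceeded Shmt1 in every clone, with Shmt1 at 18.2% to 25.5% of Shmt2 in WT and 20.4% to 30.3% in R98S clones. Relative to Shmt2, which uses the serine that Psph releases, the Psph level per kilobase was 1.11%, 0.966% and 1.20% in WT clones against 5.32%, 6.04% and 5.55% in R98S clones, a 5.18-fold higher ratio (exact permutation p = 0.1).

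Sfxn1, which carries serine into mitochondria (chromosome 13, 54071869 to 54108342, plus strand), had counts of 6517, 6220 and 7132 in WT and 6894, 7195 and 7860 in R98S clones. The groups overlapped at WT clone 36, and the log2 fold change was 0.14 (95% confidence interval -0.10 to 0.38, limma adjusted p = 0.380). When each gene was corrected for the median shift of its 30 closest neighbours, Sfxn1 (log2 fold change 0.37, limma adjusted p = 0.0486) and Shmt2 (0.33, limma adjusted p = 0.0684) were called higher as well. Among the other 4 sideroflexins, Sfxn3, a further mitochondrial serine carrier, was lower in R98S clones. Its counts were 1761, 2027 and 1324 in WT and 751.5, 1418 and 692.9 in R98S clones, with R98S clone 13 above WT clone 36 (log2 fold change -0.89, limma adjusted p = 0.0660), and its call was lost without WT clone 28, WT clone 29, R98S clone 11 or R98S clone 35 (log2 fold change -1.22 to -0.70 over the fits that left out 1 clone). Sfxn2, Sfxn4 and Sfxn5 were not called.

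Srr, which converts L-serine to D-serine (chromosome 11, 74906359 to 74925948, minus strand), had counts of 242.7, 227.8 and 336.3 in WT and 185.8, 220.5 and 207.2 in R98S clones. The R98S clones were all lower, WT clone 29 and R98S clone 13 being close to each other and WT clone 36 the highest. The log2 fold change of -0.38 (95% confidence interval -0.82 to 0.07) had a limma adjusted p of 0.227, and the fold change was -0.20 without WT clone 36. Of the Srr exon bases, 27.2% (1240) are shared with Tsr1 on the opposite strand, a ribosome maturation factor gene with mean counts of 1756 in WT and 2125 in R98S clones (limma adjusted p = 0.137), so the Srr counts are uncertain if strand was not used in counting. A further 126 shared bases belong to Smg6 (limma adjusted p = 0.297), and 32 bases of Shmt2 are shared with Ndufa4l2, which did not pass the filter.

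The glycine cleavage system showed no called change, with very different precision for its components. Gcsh, the lipoyl carrier protein (chromosome 8, 116981810 to 116993537, minus strand), was counted at 1470, 1636 and 1842 in WT and 1632, 1715 and 1627 in R98S clones, and the R98S clones all fell within the WT range. Its log2 fold change was 0.01 (95% confidence interval -0.25 to 0.28, or 0.84- to 1.21-fold, limma adjusted p = 0.952). Gldc, the glycine decarboxylase (chromosome 19, 30098447 to 30175429, minus strand), had counts of 21.5, 61.3 and 16.0 in WT and 24.4, 44.9 and 72.2 in R98S clones. Its highest clone exceeded its lowest within each group by more than the group means differed, and the coefficient of variation was 75% in WT and 50.8% in R98S clones. The log2 fold change of 0.61 (95% confidence interval -0.68 to 1.91, limma adjusted p = 0.490) therefore covers 0.625- to 3.75-fold, with 16 to 78 reads per library, and the log2 fold change was 0.23 with WT clone 36 left out and 1.17 with WT clone 29 left out. Amt, the aminomethyltransferase (chromosome 9, 108296853 to 108302302, plus strand), was counted at 31.7, 37.6 and 46.0 in WT and 31.0, 28.6 and 40.7 in R98S clones (log2 fold change -0.20, 95% confidence interval -0.87 to 0.47, limma adjusted p = 0.680), and its log2 fold change ran from -0.34 without R98S clone 35 to -0.06 without WT clone 36. Changes of Gldc or Amt within these intervals were not detectable at this depth and spread. Dld, the subunit that the cleavage system shares with other mitochondrial dehydrogenase complexes, had mean counts of 5371 and 5644 (limma adjusted p = 0.703). The Gcsh to Shmt2 ratio (exact permutation p = 0.5), the Sfxn1 to Shmt2 ratio (exact permutation p = 0.8) and the Gldc to Amt ratio (exact permutation p = 0.3) overlapped between the groups.

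Ordered by level per kilobase in WT clones, the members were Psat1, Phgdh, Shmt2, Gcsh, Sfxn1, Shmt1, Srr, Psph, Amt and Gldc. The ranges of Psat1 (3813 to 4989) and Phgdh (3319 to 3937) overlapped, and all other neighbours in this order were apart. In R98S clones Psph (131.8 to 155.8) and Srr (40.7 to 48.4) exchanged places, and the order was otherwise unchanged. There the ranges of Amt and Gldc overlapped, and those of Sfxn1 and Shmt1 met at 700.5. Among the 11021 tested genes with exon lengths, Psph moved from percentile 14.6 in WT to percentile 44.2 in R98S clones, while Psat1 stayed at 98.3 and Phgdh was at 97.8 and 97.5. Shmt1 moved from 76.1 to 83. Both the glycine cleavage genes Gldc (5.41 ± 4.05 in WT, 7.74 ± 3.93 in R98S, normalized counts per kilobase, SD, n = 3) and Amt (15.8 ± 2.95 and 13.7 ± 2.64) were at the low end, whereas Gcsh (1045 ± 118 and 1050 ± 31.2) lay between Shmt2 and Sfxn1. Exon lengths were taken from GENCODE, which may differ from the annotation used for counting. With the longest transcript in place of all exons, Sfxn1 and Gcsh exchanged places.

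Clones differed among themselves in the synthesis genes. WT clone 36 had the lowest WT level of Psat1, Shmt2 and Phgdh, with deviations from the WT mean of -0.26, -0.21 and -0.12 on the log2 scale, and the highest of Srr, Amt and Gcsh (0.34, 0.27 and 0.17). In the same clone Asns, Mthfd2, Atf5 and Trib3, which are targets of ATF4, were also lowest among WT clones, with deviations of -0.51, -0.40, -0.83 and -0.81. Psph was not lowest in this clone, with deviations of -0.069 in WT clone 36 and -0.077 in WT clone 29. The paper's reporting summary states that a WT36 library of another set, matched to polysome profiling, was left out. The reason given is that it grouped with the R98S samples. With 3 clones a group these are descriptions of single cultures.

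Other genes that make, use or break down serine and glycine were counted next. Of 27 such genes 14 were tested and 8 were at or under 3 reads in all libraries, among them Cbs, which consumes serine in transsulfuration. Called higher were 2, Ptdss2 and Grhpr, and 0 were called lower, which is 14.3% of those tested beside the 23.9% called among all genes, with a median log2 fold change of 0.05. Ptdss2, a phosphatidylserine synthase, had means of 509.2 and 647 (log2 fold change 0.34, limma adjusted p = 0.0835). Grhpr, which reduces hydroxypyruvate and glyoxylate, had counts of 1316, 1239 and 1057 in WT and 1791, 2235 and 1339 in R98S clones (log2 fold change 0.55, limma adjusted p = 0.0891). The call of Ptdss2 was lost without any 1 clone other than R98S clone 13 (log2 fold change 0.32 to 0.36), and that of Grhpr without any 1 clone other than R98S clone 35 (0.37 to 0.74). Both calls were also lost without the expression filter and with the regional shift removed, which gave log2 fold changes of -0.02 for Ptdss2 and 0.19 for Grhpr (limma adjusted p = 0.908 and 0.562). The serine palmitoyltransferase genes Sptlc1 and Sptlc2, Gcat, Gss and Alas1 were not called.

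Upstream of the pathway, 4 of 6 genes of glycolytic enzymes around 3-phosphoglycerate went the other way from Psph. These 4 were called lower in R98S clones and 0 were called higher. Among all genes tested 13.1% were called lower and 10.7% higher. The median log2 fold change of the 6 genes was -0.74. Pgk1, which makes 3-phosphoglycerate, had counts of 30326, 27285 and 23385 in WT and 14049, 17392 and 9396 in R98S clones (log2 fold change -1.02, limma adjusted p = 0.0206). Pgam1, which competes with Phgdh for 3-phosphoglycerate, fell from 23253 ± 450 (SD, n = 3) to 13553 ± 3000 (log2 fold change -0.80, limma adjusted p = 0.0169). Eno1, the next glycolytic enzyme, had mean counts of 32443 against 15867 (log2 fold change -1.04, limma adjusted p = 0.0127). Gapdh averaged 21542 against 13642 (log2 fold change -0.67, limma adjusted p = 0.0543), but its call was lost without WT clone 28, WT clone 29, R98S clone 11 or R98S clone 35 (log2 fold change -0.84 to -0.49 over the fits that left out 1 clone). In Pgk1, Pgam1, Eno1 and Gapdh all R98S clones were below all WT clones, and R98S clone 35 was the lowest. Bpgm, the mutase of the 2,3-bisphosphoglycerate shunt, had mean counts of 543 and 669.7 (limma adjusted p = 0.131), and Pgam2 31.6 and 34.7 (limma adjusted p = 0.760). For Bpgm all R98S clones were above all WT clones. With upper-quartile scaling, and with the regional shift removed, 1 of the 6 genes was called higher.

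**Figure D4:**
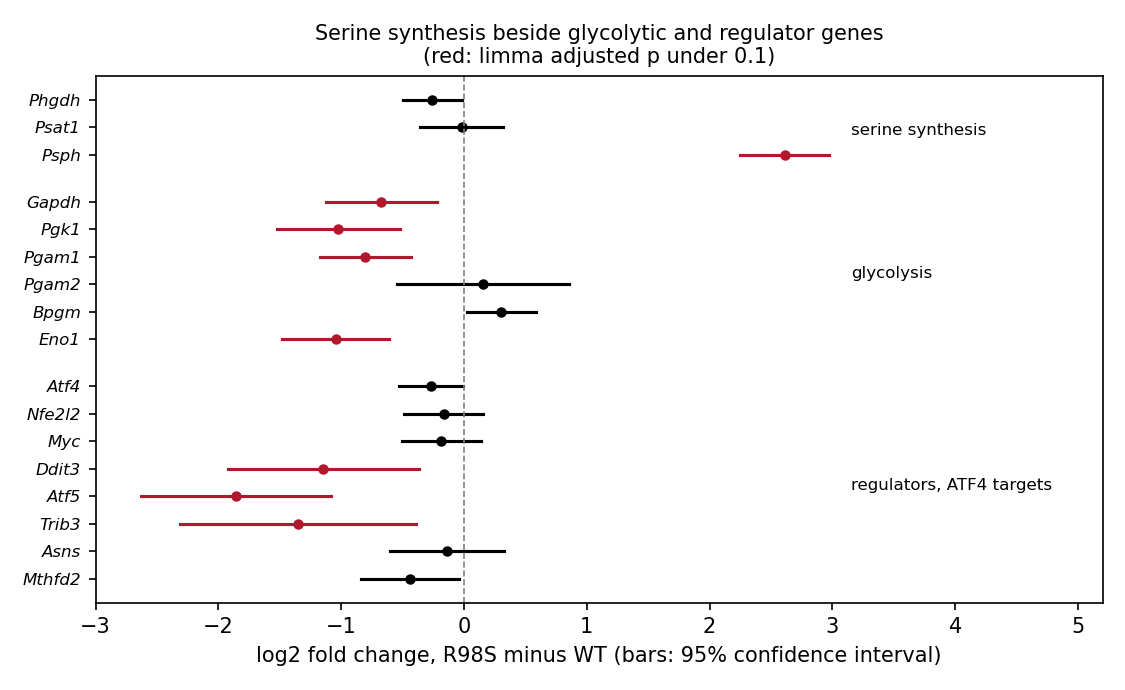
Log2 fold change (R98S minus WT, bars 95% confidence interval) of the 3 serine synthesis genes, the 6 glycolytic genes and the 8 tested regulators and ATF4 targets, with called genes in red. Psph at 2.61 is the only called gene to the right of 0, while Pgk1, Eno1 and Atf5 lie at -1.02, -1.04 and -1.86.

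Of 9 regulators of serine synthesis and targets of ATF4, 8 were tested. Of these 3 were called lower in R98S clones and 0 higher, beside 13.1% lower and 10.7% higher among all genes tested. Their median log2 fold change was -0.36. Atf5, a transcription factor induced together with ATF4, had counts of 773.1, 655.5 and 299.2 in WT and 147.3, 125.5 and 170.2 in R98S clones. The groups did not overlap (log2 fold change -1.86, limma adjusted p = 0.0126). Trib3, a pseudokinase (means 1558 and 616.4, log2 fold change -1.35, limma adjusted p = 0.0648), and Ddit3, which encodes CHOP (736.5 and 307.4, log2 fold change -1.14, limma adjusted p = 0.0562), were also lower. For Trib3 the groups overlapped, with R98S clone 13 (980.8) above WT clone 36 (827.6). The Trib3 call was lost without WT clone 28, WT clone 29, R98S clone 11 or R98S clone 35 (log2 fold change -1.25 to -1.06), and the Ddit3 call without R98S clone 11 (-1.04) or R98S clone 35 (-1.09). Without WT clone 29, the highest clone for Ddit3, its log2 fold change was -0.73. Atf4 itself had means of 16513 and 13726 (log2 fold change -0.27, limma adjusted p = 0.148), Mthfd2 7113 and 5156 (-0.44, limma adjusted p = 0.124) and Asns 7124 and 6276 (-0.14, limma adjusted p = 0.671). Myc and Nfe2l2 were not called, and Chac1 did not pass the filter. The count called lower was 1 without R98S clone 11 or 35, 2 without WT clone 28 or 29, 4 without R98S clone 13 and 5 without WT clone 36.

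The genes around Psph differed far less between the groups than Psph. Among the 10 nearest tested genes, which together span 501.8 kb, log2 fold changes ran from -0.57 to 0.65 with a median of 0.20. Over all genes tested 10.7% were called higher and 13.1% lower, and of these 10 neighbours 2 were called higher and 0 lower. These were Gusb, β-glucuronidase, with counts of 2400, 2231 and 2356 in WT and 3066, 3148 and 5058 in R98S clones (log2 fold change 0.65, limma adjusted p = 0.0525), and Sumf2 (0.61, limma adjusted p = 0.0824). Mrps17, the nearest gene at lower coordinates, had means of 1255 and 1382 (limma adjusted p = 0.471). For Shmt1, the median log2 fold change of the 10 nearest genes was -0.03, with 0 called higher and 1 lower, and for Srr a median of 0.35 with 4 called higher, opposite in sign to Srr.

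**Figure D5:**
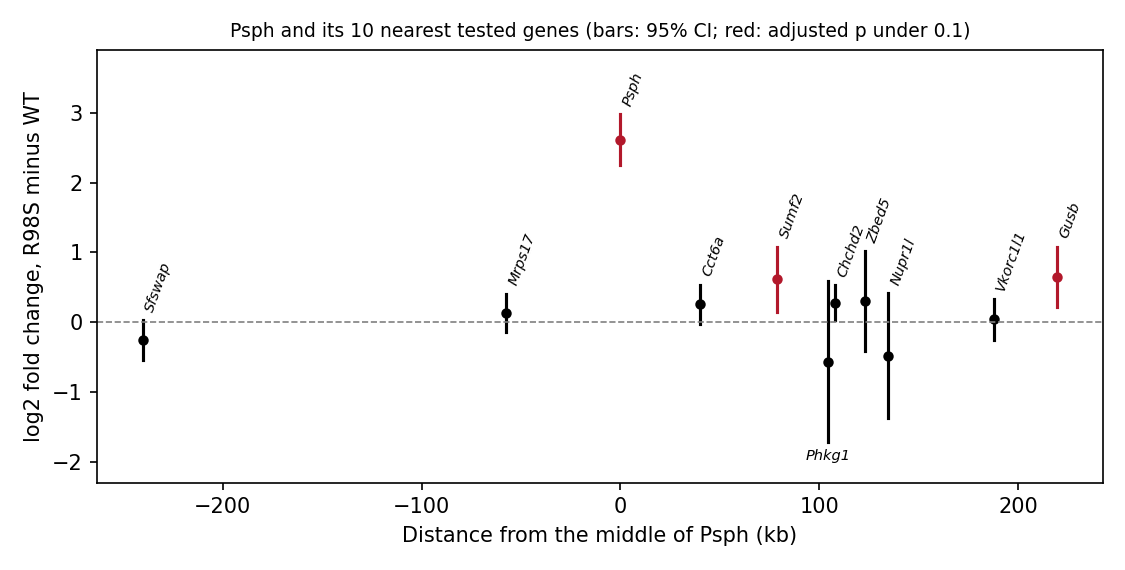
Log2 fold change (R98S minus WT, 95% confidence interval) of Psph and its 10 nearest tested genes against distance from the middle of Psph in kb, with called genes in red. Psph at 2.61 stands above all neighbours, whose values run from -0.57 to 0.65.

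The genes whose levels over the 6 libraries most resembled Psph were Ccdc62, Cd200r2, Nrxn2, Tspyl4 and Sv2c. The measure was the root mean square difference of log2 values centred on each gene's mean, which was 0.296, 0.316, 0.331, 0.358 and 0.383 for these genes. All were higher in R98S clones, which follows from choosing them by likeness to Psph. They were expressed weakly, Ccdc62 with counts of 28.7, 34.4 and 42.0 in WT and 156.7, 207.2 and 169.3 in R98S clones. No member of the pathway was among them. The next largest log2 fold change of a member, that of Gldc, was 0.61, so this absence also follows from the measure.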

How the data were processed

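One polyA mRNA library from each of 6 Ba/F3 clones was analysed, grouped by the clone labels. The authors mapped reads with TopHat v2.0.11 to GRCm38/mm10 and kept alignments with a mapping quality of at least 10, and the submitters' processing notes also name Bowtie2, SAMtools, HTSeq and DESeq2. The gene annotation and the strand setting of the counting are not given in the sources used here. The deposited signal is the authors' read count per gene divided by a DESeq2 size factor. All values (100%) were whole multiples of 1 step per library (tolerance 0.01), which gave back the reads. The step of WT clone 36 was 1.00076, too close to 1 for its low values to tell such a step from whole numbers.

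Differences were tested by the moderated two-sided test of limma 3.58.1 in R 4.3.3, with trend, after adding a pseudocount of 1 to the normalized counts and taking log2, for genes with a mean of at least 10, with Benjamini-Hochberg adjustment over 11550 genes. This scale understates changes of weakly expressed genes. Ratios and shares were compared with exact permutation tests over clones. On the recovered reads edgeR 4.0.16 called 2746 genes and DESeq2 1.42.0 called 3105. Chi-square per degree of freedom between clones of 1 group was 17.1 to 58.8, above sampling noise, and p-values measure only the spread between these clones.

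The members and gene lists were chosen with earlier results of these data known. Named are all members, genes of the other lists with an adjusted p under 0.1 (at most 8 a list), Rpl10, genes overlapping a member, the nearest tested gene on each side of Psph and the 5 genes most like Psph. Others were named after their values were seen. Alternatives were pseudocounts of 0.5 and 5, no filter or a minimum of 50, total or upper-quartile scaling, no trend, a threshold of 0.05, edgeR, DESeq2, subtraction of the median shift of the 30 nearest genes, the longest transcript as length, and leaving out each clone.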

Additional observations from a re-analysis of the deposited data

How the results depend on the processing

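Across 168 comparisons of a member's log2 fold change with an alternative setting, 157 kept their direction and side of the threshold, and Psph was called under all 17 settings. Psat1, near 0, turned to 0.001 with total scaling, 0.022 with upper-quartile scaling (both of which move all genes alike) and 0.26 with the regional shift removed, and leaving out clones gave -0.147 to 0.084. For Gcsh leaving out clones gave -0.067 to 0.096. Removing the regional shift raised the members called higher to 4 and turned Ptdss2 to -0.02, while leaving out clones gave 1 to 2 members called higher. Leaving out clones gave 1322 to 3213 genes called in all (585 to 1436 higher, 737 to 1777 lower), the lowest totals without WT clone 28 (1322), WT clone 29 (1457) and R98S clone 11 (1560). A threshold of 0.05 gave 1722 genes (776 higher, 946 lower). The log2 Sfxn1 to Shmt2 ratio difference ran from -0.196 to 0.056 when clones were left out. With the longest transcript as length, Sfxn1 took position 4 and Gcsh position 5 in both groups. Apart from these settings' own construction, the cause was not tested. Ptdss2 and Grhpr were each not called in several of the fits that left out a clone, which gave 0 to 1 of the other serine and glycine enzymes called higher and 0 to 3 lower. The call of Sfxn3 was lost without WT clone 28, WT clone 29, R98S clone 11 or R98S clone 35.

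No paired analysis was possible because the WT and R98S clones share no number. With 3 clones a group, an exact permutation test cannot give p below 0.1. Gldc and Amt rest on the fewest reads (16 to 78 and 28 to 46 per library), and the limits set by reads and by clones were not separated.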
